A study of Homo sapiens with 60 samples.

Results

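The mitotic genes of G2 and M phase are a listed set of 40 genes whose products carry a cell from late interphase through mitosis to the cut between daughter cells. They were found by matching the gene identifiers of the count table to symbols. All 40 were found among the 60675 genes of the table, and all 40 passed the filter on low counts that left 16517 genes for testing. For this account they were placed in 7 steps: mitotic entry (7 genes), spindle assembly (8), kinetochore and checkpoint (9), chromosome structure (3), chromosomal passenger complex (3), anaphase and APC/C (4), and midzone and cytokinesis (6).

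Transcripts were measured by RNA-seq in HepG2, a line from a human hepatocellular carcinoma that divides in culture, 24 h after treatment. The 60 libraries made 20 groups of 3: a DMSO vehicle, wortmannin at 10 µM as the positive control, and water extracts of 6 herbs, each at 3 doses. The high, medium and low doses were 500, 100 and 20 µg/mL for 5 of them: Aucklandiae Radix, Zizyphi Semen, Longan Arillus, Schisandrae Fructus and Liriopis seu Ophiopogonis Tuber. For Polygalae Radix they were 450, 90 and 18 µg/mL. The sample labels give the vehicle as 0.1% DMSO and the series' design text gives another level, so its level is uncertain. For wortmannin and the extracts the labels give no DMSO level. In comparisons with the vehicle, a difference in DMSO therefore cannot be told apart from the treatment. Wortmannin is an inhibitor of phosphoinositide 3-kinases, which pass on signals of insulin and growth factors. All groups are the same line, and the labels name no genetic change.

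A cell enters mitosis when cyclin B and CDK1 become active together, helped by phosphatases such as CDC25C and by the kinase PLK1. Aurora kinases and motor proteins then build the spindle, kinetochores attach the chromosomes to it, and a checkpoint holds back the anaphase-promoting complex (APC/C) until every chromosome is attached. Once CDC20 activates the APC/C, securin and cyclin B are destroyed, the chromosomes part, and the midzone and contractile ring divide the cell. Transcripts of most of these genes are made in G2 and M phase and are low in cells that do not divide. In bulk samples such as these, fewer cells in G2 and M phase and less RNA of these genes per cell cannot be told apart.

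Depth lay between 20.21 and 36.41 M counts a library. Levels are CPM (counts scaled to a library of 1 M) after scaling of the library sizes, given per library or as mean ± SD of 3, and were not divided by gene length. By their sample codes the libraries form 5 sets, in which Aucklandiae goes with Polygalae, Zizyphi with Longan and Schisandrae with Liriopis, and wortmannin and the vehicle each stand alone. The meaning of these sets is not stated. In a comparison with the vehicle, or of groups from different sets, the treatment and the set therefore cannot be told apart. The doses of an extract share a set. Earlier results of these data set 4 libraries apart by a low slope on the GC content of genes. They are medium-dose Aucklandiae replicate 3, vehicle replicate 1, and replicate 2 of low-dose Schisandrae and 1 of low-dose Liriopis. That slope was not recomputed here. These 4 libraries were also left out together, and counts that move without them are given both ways. The labels do not say that replicates came from separate cultures, so the spread behind the p-values is that between these samples and may be technical. Hepatocyte genes were high, with albumin (ALB) at 6220 to 8760 CPM across the libraries before scaling, while the leukocyte genes PTPRC and CD3E were at 0 in all 60. The 13 mitochondrially encoded mRNAs took 13.0 to 16.1% of counts in the vehicle, 10.5 to 11.3% with wortmannin, 9.57 to 9.98% with high-dose Aucklandiae and 9.31 to 11.2% with high-dose Polygalae. The mean share was below the vehicle's 14.1% in every treated group (9.11 to 13.0%), also where none of the 40 genes was called lower, as with low-dose Liriopis (10.9%). Summed over 10 hepatocyte genes, levels were 46000 to 47500 CPM in the vehicle, 53700 to 55600 with wortmannin, 41700 to 44100 with high-dose Aucklandiae and 40200 to 41100 with high-dose Polygalae. The sum over 6 fibroblast genes was 10.3 to 14.2 CPM in the vehicle, 19.9 to 23.2 with wortmannin and 17.5 to 20.2 with high-dose Schisandrae, most of it PDGFRB in the vehicle, while LUM stayed at or under 0.0917 and DCN at or under 0.507 in every library. Endothelial genes summed to 4.7 to 4.87 CPM in the vehicle and 3.34 to 3.86 with high-dose Aucklandiae, and 5 immune genes to 46.2 to 48.6 and 58.9 to 61.3, most of it CD68 in the vehicle, with 54.0 to 58.0 for high-dose Schisandrae. The part of these shifts in the results below was not tested.

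Many promoters of late cell cycle genes are known to carry a short element called the cell cycle genes homology region, written here as TTTGAA or TTTAAA, and CCAAT boxes, the site of the factor NF-Y. RefSeq promoter windows on GRCh38.p14 (250 bases before to 50 after the start) were matched to 34 of the 40 genes; FOXM1, AURKA, TPX2, TTK, BIRC5 and UBE2C were not matched. On either strand, TTTGAA or TTTAAA was found in 30 of the 34 (88.2%), against 27.9% of 27305 genes in the promoter table and 21.2% of the tested genes with a window. CCAAT was found in 28 of the 34 (82.4%, against 39.7% of all genes), and 18 held it 2 or more times (52.9% against 12.9%). GCGGGAA, a form of the E2F site of genes switched on before S phase, was found in 2 of the 34 (5.88% against 7.82%). Among the tested genes with a window, 42.7% held CCAAT, 16.2% held it 2 or more times and 12.2% held GCGGGAA. Related lists, described below, were matched the same way. Of 38 other G2 and M phase genes with a window, 73.7% held TTTGAA or TTTAAA, 71.1% CCAAT and 42.1% 2 or more CCAAT. Of 26 matched genes of DNA replication and the G1/S step, 15.4% held TTTGAA or TTTAAA, 69.2% CCAAT and 46.2% 2 or more CCAAT. Of 20 matched genes of mitotic machinery made throughout the cycle, 6 held TTTGAA or TTTAAA and 8 CCAAT. Frequent CCAAT was therefore not particular to the 40. Matches may overlap, and a gene with several windows counts once. Such a match describes letters in a window, not a site in use. The 120 bases before the start are shown first for 6 genes that fell furthest with wortmannin and had a window, with TTTGAA or TTTAAA and CCAAT, on either strand, in capitals:
PLK1 (chr16:23678769-23678888, plus strand): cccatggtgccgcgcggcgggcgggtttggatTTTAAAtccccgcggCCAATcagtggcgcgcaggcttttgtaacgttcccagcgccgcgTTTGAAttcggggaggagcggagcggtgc
CCNB1 (chr5:69167030-69167149, plus strand): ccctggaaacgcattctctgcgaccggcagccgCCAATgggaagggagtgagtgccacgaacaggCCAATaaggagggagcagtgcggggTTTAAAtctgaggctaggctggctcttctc
CCNB2 (chr15:59105026-59105145, plus strand): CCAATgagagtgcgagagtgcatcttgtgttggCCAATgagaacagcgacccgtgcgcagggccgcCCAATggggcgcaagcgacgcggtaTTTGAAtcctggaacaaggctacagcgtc
CDC20 (chr1:43358861-43358980, plus strand): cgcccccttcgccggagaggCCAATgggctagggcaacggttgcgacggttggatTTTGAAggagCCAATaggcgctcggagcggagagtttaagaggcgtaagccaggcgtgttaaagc
PTTG1 (chr5:160421735-160421854, plus strand): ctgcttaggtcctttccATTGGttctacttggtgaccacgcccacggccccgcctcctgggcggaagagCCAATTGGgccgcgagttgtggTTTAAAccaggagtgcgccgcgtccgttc
KIF20A (chr5:138178992-138179111, plus strand): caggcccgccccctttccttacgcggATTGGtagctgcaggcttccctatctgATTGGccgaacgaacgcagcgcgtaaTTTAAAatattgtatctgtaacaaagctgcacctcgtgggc
All 6 hold both kinds of match in these 120 bases. In CCNB1 the TTTAAA begins at position -30 from the start, in CCNB2 the TTTGAA at -29, and in PTTG1 the TTTAAA at -29. A pair that fell less is shown the same way:
INCENP (chr11:62123891-62124010, plus strand): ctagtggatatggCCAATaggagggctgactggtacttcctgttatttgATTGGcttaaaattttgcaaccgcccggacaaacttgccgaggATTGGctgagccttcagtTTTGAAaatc
ESPL1 (chr12:53268179-53268298, plus strand): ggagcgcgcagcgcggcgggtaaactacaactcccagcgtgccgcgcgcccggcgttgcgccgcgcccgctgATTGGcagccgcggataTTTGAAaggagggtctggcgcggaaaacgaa
These hold the same elements, in ESPL1 with TTTGAA at position -31. CDK1 and CDC25C, which also fell little with wortmannin, have several windows, and not all of those hold a match in the 120 bases. In KIF2C, MAD2L1, NUF2, NDC80 and AURKB the 120 bases hold neither kind of match. Windows of CCNA2, NEK2, BUB1 and AURKB held no TTTGAA or TTTAAA, and 2 of them are shown because they fell as far as many genes that hold it:
BUB1 (chr2:110678064-110678183, minus strand): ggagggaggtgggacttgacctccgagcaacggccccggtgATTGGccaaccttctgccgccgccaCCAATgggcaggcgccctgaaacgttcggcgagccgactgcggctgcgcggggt
NEK2 (chr1:211675622-211675741, minus strand): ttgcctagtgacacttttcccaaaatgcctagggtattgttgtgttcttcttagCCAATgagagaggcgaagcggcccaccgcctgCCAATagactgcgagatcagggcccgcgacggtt
The median log2 fold change with wortmannin was -0.68 over the 30 genes with TTTGAA or TTTAAA and -0.67 over the 4 without, and with high-dose Aucklandiae -0.51 and -0.58. BUB1, without the element, fell by 0.84 on the log2 scale with wortmannin, and ESPL1, which has it, by 0.37.

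Ordered by the median log2 fold change of the 40 genes against the vehicle, wortmannin stood first (-0.69), followed by high-dose Aucklandiae (-0.53) and high-dose Polygalae (-0.28). A further 5 groups lay between -0.15 and -0.11: high-dose Zizyphi (-0.15), high-dose Schisandrae (-0.14), low-dose Polygalae (-0.14), medium-dose Polygalae (-0.12) and high-dose Longan (-0.11). The other 11 groups lay between -0.05 and 0.04, with medium-dose Zizyphi lowest and low-dose Liriopis highest. The median over all tested genes was within 0.00955 of 0 in every comparison with the vehicle. The summed level of the 40 genes was 4587 ± 138 CPM in the vehicle (SD, n = 3) and 2726 ± 126 with wortmannin, 59.4% of the vehicle. It was 3041 ± 62.1 with high-dose Aucklandiae (66.3%) and 3589 ± 87.9 with high-dose Polygalae (78.2%). In these 3 groups every library lay below every vehicle library, and the groups did not overlap with each other.

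**Figure D1:**
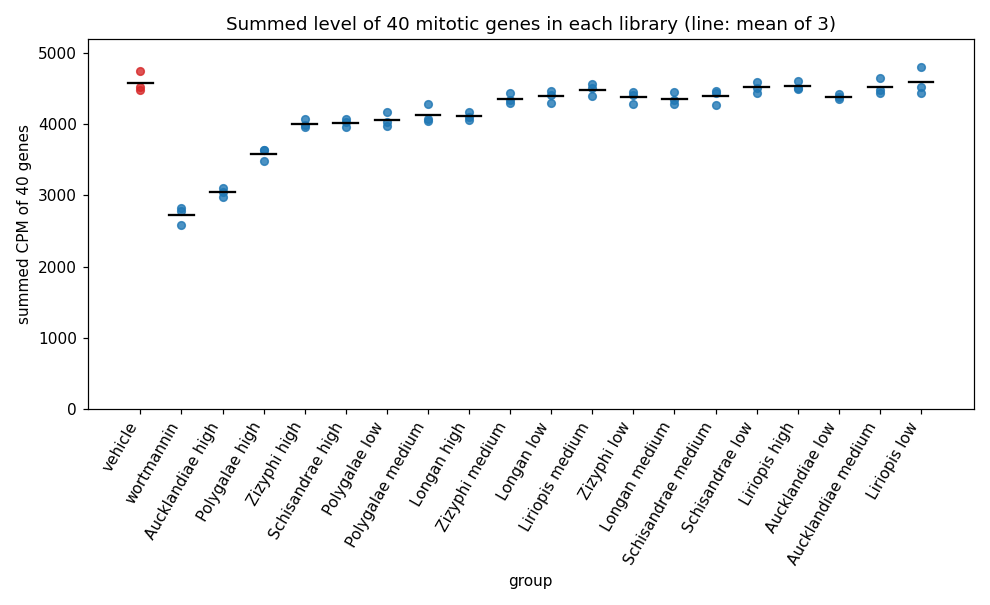
Summed CPM of the 40 mitotic genes (y axis) in each of the 3 libraries of 20 groups (x axis), with a line at the mean. Wortmannin, high-dose Aucklandiae and high-dose Polygalae stand at means of 2726, 3041 and 3589 CPM, below the vehicle at 4587.

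A gene is called lower or higher where the edgeR quasi-likelihood test gave a Benjamini-Hochberg adjusted p under 0.05 over all tested genes. The ± after a log2 fold change is a standard error, derived from the fold change and the F statistic of that test, and not an SD. With wortmannin all 40 genes were called lower, where 16.2% of all tested genes were. High-dose Aucklandiae lowered 38 of 40 (12.5% of all tested genes), the 2 others being MAD2L1 and CENPA. High-dose Polygalae lowered 31 (9.94%), high-dose Schisandrae 17 (7.25%), high-dose Zizyphi 12 (1.86%) and high-dose Longan 5 (0.842%). Low-dose Polygalae lowered 13 (7.01%) and medium-dose Polygalae 13 (5.73%). The first 3 counts were 40, 38 and 26 without the 4 libraries named above. Counts in the weaker groups changed when single libraries were left out, which also leaves fewer libraries for the test. For high-dose Zizyphi the count was 2 without vehicle replicate 1, 4 without its own replicate 1, 6 without its replicate 3 and 3 without the 4 libraries, and it was 14 without vehicle replicate 3. For high-dose Schisandrae it was 8 without vehicle replicate 1, 11 without its own replicate 2 and 11 without the 4 libraries. For high-dose Longan it was 1 to 3 without any of its own or the vehicle's libraries and 1 without the 4. For low-dose Polygalae it was 5 without vehicle replicate 1, 8 without its own replicate 1 or 2 and 5 without the 4 libraries. For medium-dose Polygalae it was 5 without vehicle replicate 1, 8 without vehicle replicate 2, 8 without its own replicate 2, 6 without its replicate 3 and 7 without the 4. When only the 6 libraries compared were fitted, the count was 0 for high-dose Longan, 1 for medium-dose Polygalae, 3 for high-dose Zizyphi and 7 for low-dose Polygalae. These counts do not say which genes were called each time.

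In the remaining groups at most 1 gene was called. PLK1 fell with low-dose Zizyphi (1 gene, 0.951% of all tested genes; log2 fold change -0.22 ± 0.06, edgeR adjusted p = 0.023) and MKI67 with low-dose Aucklandiae (1 gene, 2.26%; -0.31 ± 0.08, edgeR adjusted p = 0.017). The PLK1 call was lost without vehicle replicate 1 or 2 or low-dose Zizyphi replicate 1 or 3, and the MKI67 call without vehicle replicate 1 or low-dose Aucklandiae replicate 1 or 3. CCNB1 rose with medium-dose Aucklandiae (1 gene, where 3.05% of all tested genes were called higher; log2 fold change 0.15 ± 0.05, edgeR adjusted p = 0.047). Its libraries read 128, 126 and 126 CPM there, above the vehicle's 108, 116 and 118, and the call was lost without any of these 6 libraries other than vehicle replicate 3. By edgeR no gene of the 40 was called lower with that dose (2.47%), nor with medium-dose Schisandrae (1.2%), medium-dose Zizyphi (0.285%), low-dose Longan (0.206%) or medium-dose Longan (0.0303%). Nor was any called lower with low-dose Schisandrae (0.0182%), medium-dose Liriopis (0.0121%), low-dose Liriopis (0.0121%) or high-dose Liriopis (0.00605%). In these 9 comparisons between 2 and 5 genes were lower at an unadjusted p under 0.05, and DESeq2 called 0.

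**Figure D2:**
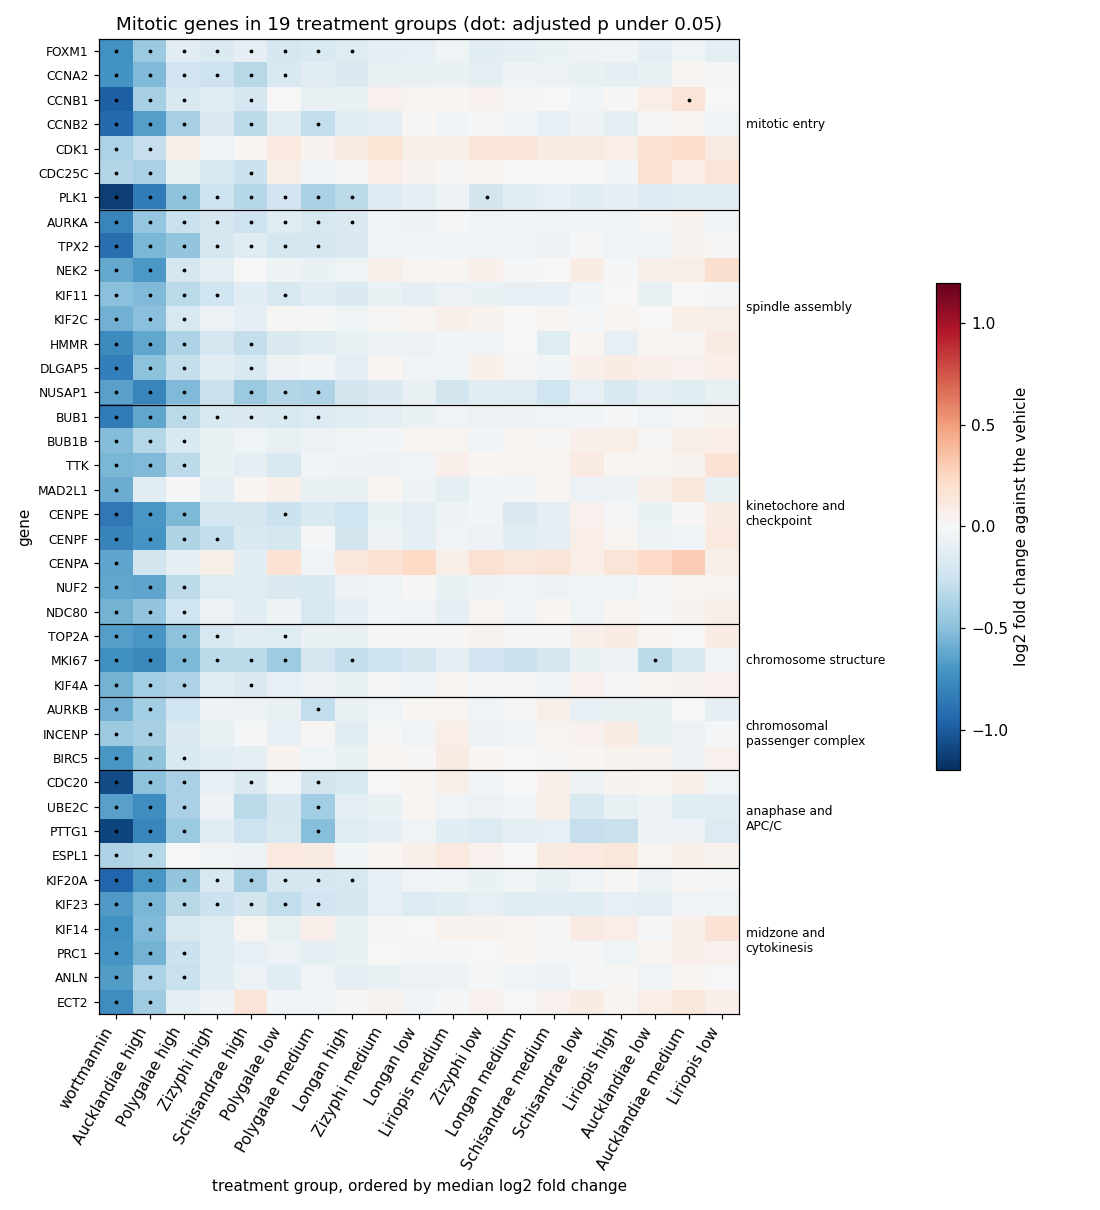
Log2 fold change against the vehicle (colour) of the 40 mitotic genes (rows, by step) in 19 treatment groups (columns, ordered by the median), with a dot where the edgeR adjusted p is under 0.05. Dots fill the wortmannin column (40) and nearly fill that of high-dose Aucklandiae (38), and only 3 stand to the right of high-dose Longan.

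Neighbours in the order of the strongest doses were compared gene by gene. Apart from Aucklandiae with Polygalae, these neighbours are of different code sets, so treatment and set cannot be told apart. Wortmannin was lower than high-dose Aucklandiae in 19 genes (17.7% of all tested genes were lower), with a median difference of -0.16 on the log2 scale. High-dose Aucklandiae was lower than high-dose Polygalae in 28 (7.54%; median difference -0.25), at doses of 500 and 450 µg/mL that differ but share a code set. High-dose Polygalae was lower than high-dose Zizyphi in 8 (6.78%), or 14 when only these 6 libraries were fitted. Below that the neighbours differed in few genes. High-dose Zizyphi was lower than high-dose Schisandrae in ECT2 (1 gene, 5.13%) and higher in KIF20A (1 gene, 4.84%). High-dose Schisandrae was lower than high-dose Longan in KIF20A (1 gene, 5.04%; log2 fold change -0.20 ± 0.05, edgeR adjusted p = 0.0045). The ECT2 call was lost without Zizyphi replicate 1 or 3 or Schisandrae replicate 1 or 2, and the last one without Longan replicate 3. High-dose Longan and high-dose Liriopis differed in 0 by edgeR (0.0182% of all tested genes were lower), with 17 lower at an unadjusted p under 0.05 and 1 by DESeq2.

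With wortmannin, mitotic entry genes had the widest range of falls of the 7 steps. PLK1 (ENSG00000166851, chromosome 16, 23677656 to 23690367), a kinase of mitotic entry and spindle assembly, read 337, 334 and 338 CPM in the vehicle and 160, 157 and 143 with wortmannin. With high-dose Aucklandiae it read 183, 196 and 187, and with high-dose Polygalae 220, 254 and 247. The 4 groups did not overlap, and PLK1 had the largest fall of the 40 genes both with wortmannin (log2 fold change -1.13 ± 0.06) and with high-dose Aucklandiae (-0.84 ± 0.06, edgeR adjusted p = 1.9e-16). It was also called lower with high-dose Polygalae (-0.49 ± 0.06), Schisandrae (-0.34 ± 0.06), Longan (-0.31 ± 0.06) and Zizyphi (-0.25 ± 0.06).

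CCNB1 (ENSG00000134057, chromosome 5, 69167010 to 69178245) encodes cyclin B1, the partner that activates CDK1. Its 3 libraries read 59.8, 59.3 and 54.2 CPM with wortmannin, 87.7, 87.2 and 83.6 with high-dose Aucklandiae and 98.3, 100 and 103 with high-dose Polygalae. The groups stood apart, with log2 fold changes of -0.98 ± 0.05, -0.40 ± 0.05 and -0.18 ± 0.05 against the vehicle. CCNB2, the second B-type cyclin, had 55.1, 55.1 and 55.2 CPM in the vehicle, 31.6, 28.0 and 27.5 with wortmannin and 36.7, 35.3 and 32.6 with high-dose Aucklandiae (-0.93 ± 0.07 and -0.66 ± 0.07). CCNA2, cyclin A2 of S and G2 phase, fell to 60.8% and 69.1% of its mean vehicle level in the same groups. Its exons overlap those of EXOSC9 on the opposite strand, so part of its reads is uncertain, and the same holds for FOXM1 with ITFG2 and KIF4A with PDZD11.

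CDK1 (ENSG00000170312, chromosome 10, 60778331 to 60794852), the kinase these cyclins activate, fell least among the entry genes with high-dose Aucklandiae. The vehicle libraries read 44.5, 43.8 and 44.6 CPM, those of wortmannin 36.2, 34.3 and 31.6, and those of high-dose Aucklandiae 37.6, 37.8 and 33.8. Both groups lay below the vehicle (log2 fold change -0.38 ± 0.07 with wortmannin and -0.28 ± 0.07 with high-dose Aucklandiae). High-dose Polygalae read 44.8, 49.2 and 45.7, above the vehicle in all 3, and was not called (0.07 ± 0.07, edgeR adjusted p = 0.54).

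CDC25C, the phosphatase that removes inhibitory phosphates from CDK1, had the smallest fall of the 40 with wortmannin, from 17.8, 17.9 and 17.5 to 13.7, 15.0 and 13.3 CPM (-0.35 ± 0.09). Its exons share 293 bases with FAM53C on the opposite strand, which held 381.45% of its counts, and the strand setting of the counting is not given, so its reads are uncertain. FOXM1 (ENSG00000111206, chromosome 12, 2857681 to 2877155), a transcription factor that drives many G2 and M phase genes, read 193, 200 and 197 CPM in the vehicle and 124, 123 and 109 with wortmannin. With high-dose Aucklandiae it read 145, 141 and 146 and with high-dose Polygalae 173, 182 and 179. These 4 groups did not overlap, with log2 fold changes of -0.73 ± 0.04, -0.45 ± 0.04 and -0.14 ± 0.04.

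Among spindle assembly genes TPX2, which brings Aurora A to the spindle, had the lowest value with wortmannin. Its libraries read 334, 308 and 303 CPM in the vehicle, 175, 173 and 160 with wortmannin and 219, 213 and 215 with high-dose Aucklandiae (-0.90 ± 0.05 and -0.55 ± 0.05). NUSAP1, a microtubule-bundling protein, had the lowest value of the step with high-dose Aucklandiae, at 44.9, 40.1 and 42.1 CPM against 78.2, 69.7 and 71.5 in the vehicle (-0.79 ± 0.09). KIF11, the motor that pushes spindle poles apart, stood at 70.7% of the vehicle mean with wortmannin (-0.50 ± 0.06) and 69.4% with high-dose Aucklandiae (-0.53 ± 0.06). AURKA, the Aurora A kinase of spindle poles, stood at 57.9% and 72.6% (-0.79 ± 0.05 and -0.46 ± 0.05). The other 4 genes, NEK2, KIF2C, HMMR and DLGAP5, lay between 56.8% and 66.7% of the vehicle with wortmannin and between 62.1% and 71.4% with high-dose Aucklandiae, and all fell in both.

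The kinetochore and checkpoint genes held the pair not called lower with high-dose Aucklandiae against the vehicle, MAD2L1 and CENPA. Both had a log2 fold change below 0 there, and both were called lower against the low dose. CENPE, the kinetochore motor that moves chromosomes to the spindle's middle, had the largest fall of the step with wortmannin, from 60.6, 50.8 and 53.1 CPM to 29.7, 33.3 and 27.8 (-0.86 ± 0.09). CENPF, an outer kinetochore protein, had the largest with high-dose Aucklandiae, from 254, 239 and 237 to 160, 136 and 151 CPM (-0.71 ± 0.08). BUB1B, a checkpoint component, fell least with wortmannin, to 69.7% of the vehicle (-0.52 ± 0.04).

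MAD2L1, the checkpoint protein that binds CDC20, read 43.3, 42.2 and 38.2 CPM in the vehicle and 28.6, 26.4 and 27.0 with wortmannin. With high-dose Aucklandiae it read 38.1, 38.3 and 36.5, overlapping the vehicle, and was not called (log2 fold change -0.13 ± 0.06, edgeR adjusted p = 0.12), while its level lay above that of wortmannin (difference of wortmannin from Aucklandiae -0.46 ± 0.06, edgeR adjusted p = 1.2e-07). CENPA, the histone H3 variant of centromeres, was low and variable, at 15.7, 16.6 and 18.5 CPM in the vehicle and 16.3, 14.4 and 12.9 with high-dose Aucklandiae (-0.22 ± 0.14, edgeR adjusted p = 0.27). Its exons overlap those of SLC35F6 on the same strand, so its reads are uncertain. The remaining 4 genes (BUB1, TTK, NUF2 and NDC80) all fell in both groups, to between 56.1% and 68.4% of the vehicle with wortmannin and between 64.7% and 72.5% with high-dose Aucklandiae.

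Among chromosome structure genes, MKI67 and TOP2A had close values with wortmannin and high-dose Aucklandiae, with no difference called. MKI67 (ENSG00000148773, chromosome 10, 128096659 to 128126385), which coats mitotic chromosomes and is the Ki-67 proliferation marker, read 663, 611 and 618 CPM in the vehicle, 379, 389 and 361 with wortmannin and 384, 334 and 390 with high-dose Aucklandiae. Both treated groups lay below the vehicle and overlapped each other (log2 fold change -0.74 ± 0.08 and -0.77 ± 0.08, difference 0.03 ± 0.08, edgeR adjusted p = 0.84). TOP2A (ENSG00000131747, chromosome 17, 40388516 to 40417950), the topoisomerase that untangles sister chromatids, read 609, 559 and 546 CPM in the vehicle, 374, 362 and 350 with wortmannin and 359, 341 and 353 with high-dose Aucklandiae. These overlapped too, at -0.66 ± 0.05 and -0.70 ± 0.05, with a difference of 0.04 ± 0.05 (edgeR adjusted p = 0.54). With high-dose Polygalae both fell as well, MKI67 to 427, 438 and 441 CPM (-0.54 ± 0.08) and TOP2A to 388, 418 and 411 (-0.49 ± 0.05). KIF4A, a chromosome-bound motor, fell less, to 67.3% and 75.2% of the vehicle with wortmannin and high-dose Aucklandiae, and wortmannin was the lower (-0.16 ± 0.06, edgeR adjusted p = 0.025).

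The chromosomal passenger complex, which corrects wrong attachments and then guides cytokinesis, had the smallest median fall of the 7 steps with wortmannin and with high-dose Aucklandiae. AURKB (ENSG00000178999, chromosome 17, 8204733 to 8210600), its kinase, read 59.4, 64.5 and 61.8 CPM in the vehicle, 41.7, 44.7 and 38.3 with wortmannin and 46.7, 49.4 and 43.6 with high-dose Aucklandiae. The treated groups lay below the vehicle and overlapped each other (-0.58 ± 0.10 and -0.41 ± 0.10). BIRC5 (ENSG00000089685, chromosome 17, 78214186 to 78225636), which encodes survivin, the subunit that docks the complex on chromatin, read 139, 149 and 148 CPM in the vehicle, 92.9, 95.0 and 81.0 with wortmannin and 106, 101 and 105 with high-dose Aucklandiae. Its groups did not overlap (-0.70 ± 0.06 and -0.48 ± 0.06, difference -0.22 ± 0.06, edgeR adjusted p = 0.0039). INCENP, the scaffold of the complex, fell least, to 73.5% and 75.7% of the vehicle (-0.44 ± 0.07 and -0.40 ± 0.07). With high-dose Polygalae only BIRC5 of the 3 was called lower (-0.18 ± 0.06, edgeR adjusted p = 0.03).

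Anaphase and APC/C genes held both large and small falls. CDC20 (ENSG00000117399, chromosome 1, 43358955 to 43363203), the APC/C activator, read 102, 103 and 102 CPM in the vehicle, 51.8, 50.4 and 44.0 with wortmannin and 74.6, 74.5 and 70.5 with high-dose Aucklandiae. The 3 groups did not overlap, and wortmannin was lower than Aucklandiae by 0.59 ± 0.06 on the log2 scale, the widest gap of the 40 genes (edgeR adjusted p = 1.1e-10). PTTG1, which encodes securin, the inhibitor of separase, had the largest fall of the step in both groups, from 44.2, 43.2 and 40.8 CPM to 21.4, 19.4 and 19.3 with wortmannin and 24.3, 25.7 and 24.9 with high-dose Aucklandiae (-1.10 ± 0.16 and -0.78 ± 0.16). Its standard error was the largest of the 40 genes, and its values spread widely elsewhere, as at 37.0, 23.0 and 30.5 CPM with medium-dose Polygalae. ESPL1, separase itself, fell least of the step, from 50.8, 52.2 and 55.5 CPM to 41.4, 42.3 and 38.8 with wortmannin and 44.0, 39.9 and 41.6 with high-dose Aucklandiae (-0.37 ± 0.08 and -0.34 ± 0.08). UBE2C, the ubiquitin-conjugating enzyme of the APC/C, stood at 63.7% of the vehicle with wortmannin and 59.5% with high-dose Aucklandiae.

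Midzone and cytokinesis genes had log2 fold changes from -0.95 to -0.67 with wortmannin and from -0.70 to -0.38 with high-dose Aucklandiae. KIF20A (ENSG00000112984, chromosome 5, 138178719 to 138187715), a kinesin of the midzone, read 83.5, 79.9 and 81.0 CPM in the vehicle, 43.0, 43.2 and 40.4 with wortmannin, 50.7, 50.9 and 48.5 with high-dose Aucklandiae and 56.1, 61.3 and 59.3 with high-dose Polygalae. None of the 4 groups overlapped, and the log2 fold changes were -0.95 ± 0.05, -0.70 ± 0.05 and -0.47 ± 0.05. High-dose Schisandrae read 61.7, 60.1 and 64.0, one of its largest falls among the 40 genes (-0.40 ± 0.05, edgeR adjusted p = 5e-08). KIF20A exons overlap BRD8 and CDC23 on the opposite strand, so part of its reads is uncertain. ANLN, the scaffold of the contractile ring, had the smallest fall of the step, to 62.7% and 76.6% of the vehicle with wortmannin and high-dose Aucklandiae (-0.67 ± 0.06 and -0.38 ± 0.06). KIF23, KIF14, PRC1 and ECT2 lay between 59.6% and 62.6% with wortmannin and between 67.2% and 74.5% with high-dose Aucklandiae, and all fell in both.

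Ranked by the median of the step, the order differed between treatments. With wortmannin it ran from anaphase and APC/C (-0.86) through mitotic entry (-0.73), midzone and cytokinesis (-0.72), spindle assembly (-0.71), chromosome structure (-0.66) and kinetochore and checkpoint (-0.62) to the passenger complex (-0.58). With high-dose Aucklandiae it ran from chromosome structure (-0.70) and anaphase and APC/C (-0.62) through spindle assembly (-0.54), midzone and cytokinesis (-0.54), kinetochore and checkpoint (-0.53) and mitotic entry (-0.45) to the passenger complex (-0.41). High-dose Polygalae also had chromosome structure lowest (-0.49), then anaphase and APC/C (-0.39), with mitotic entry and the passenger complex at -0.18. All genes of every step were called lower with wortmannin, and of every step but kinetochore and checkpoint (7 of 9) with high-dose Aucklandiae, so calls do not separate the steps. Single genes of anaphase and APC/C (-1.10 to -0.37 with wortmannin) and of mitotic entry (-1.13 to -0.35) spread more widely than the 7 medians. Compared directly, where 17.7% of all tested genes were lower, wortmannin was lower than high-dose Aucklandiae in 5 of 7 entry genes, 4 of 6 midzone genes, 4 of 9 kinetochore genes and 3 of 8 spindle genes. It was lower in 1 of 3 chromosome structure genes (KIF4A), 1 of 3 passenger genes (BIRC5) and 1 of 4 anaphase genes (CDC20), 1 gene in each. Wortmannin and Aucklandiae are of different code sets, so treatment and set cannot be told apart in these counts.

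**Figure D3:**
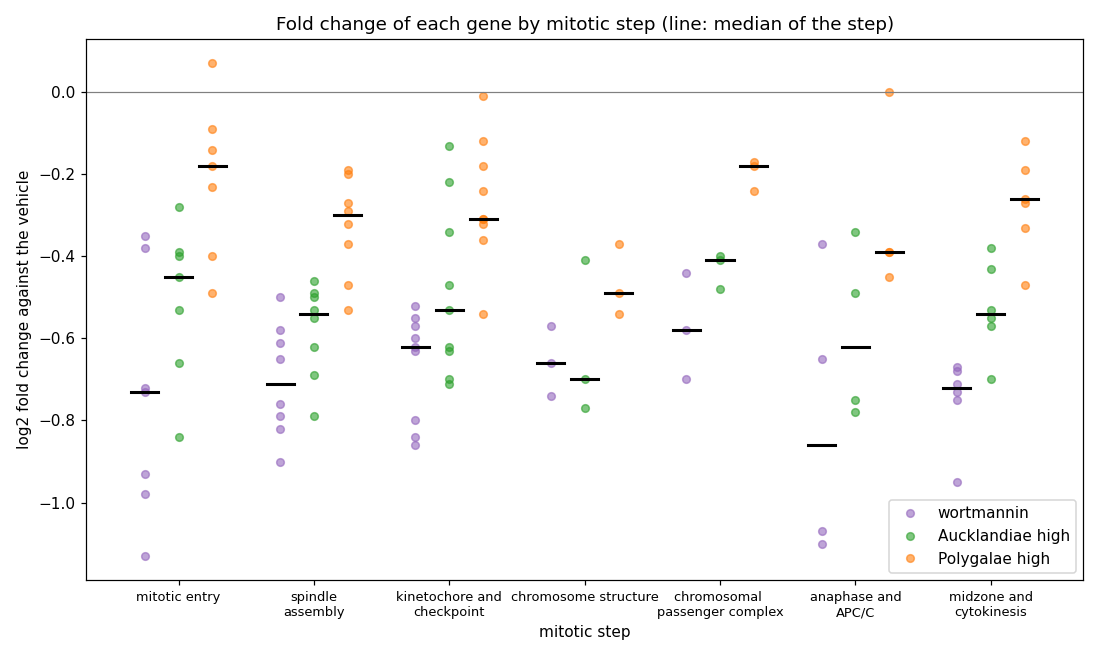
Log2 fold change against the vehicle (y axis) of each gene in the 7 mitotic steps (x axis) with wortmannin, high-dose Aucklandiae and high-dose Polygalae, with a line at the median of each step. Step medians run from -0.86 to -0.58 with wortmannin, and single genes of 1 step spread further than that, as in mitotic entry from -1.13 to -0.35.

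Within an extract the dose comparison shares a code set and does not use the vehicle. High- against low-dose Aucklandiae lowered all 40 genes (7.14% of all tested genes), with a median log2 fold change of -0.51, and every high-dose library lay below every low-dose library in all 40 (14.8% of all tested genes did). PLK1 read 315, 289 and 299 CPM at the low dose, 335, 296 and 292 at the medium dose and 183, 196 and 187 at the high dose. The low and medium doses overlapped, and the high dose stood apart. KIF20A read 82.0, 73.7 and 76.7, then 91.2, 77.7 and 77.2, then 50.7, 50.9 and 48.5, and TOP2A 567, 593 and 576, then 557, 564 and 591, then 359, 341 and 353. Genes of each of the 7 steps were called, the largest falls being NEK2, a centrosome kinase (-0.75 ± 0.07), and TOP2A (-0.72 ± 0.05). MAD2L1 fell least (-0.20 ± 0.06, edgeR adjusted p = 0.024) and lost its call without low-dose replicate 1 or high-dose replicate 3, and so did AURKB. CENPA (-0.45 ± 0.14) lost its call without low-dose replicate 1 or high-dose replicate 2 or 3.

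High- against low-dose Polygalae lowered 12 genes (2.7% of all tested genes; median -0.15). The largest falls were CDC20 (-0.35 ± 0.06), with 95.2, 109 and 95.2 CPM at the low dose and 74.5, 78.9 and 81.6 at the high dose, and TOP2A (-0.34 ± 0.05), with 499, 499 and 545 against 388, 418 and 411. Neither overlapped. Here the low and medium doses already lay below the vehicle for some genes. PLK1 read 294, 281 and 284 CPM at the low dose, 266, 241 and 262 at the medium dose and 220, 254 and 247 at the high dose, so the medium and high doses overlapped and all 9 libraries were below the vehicle. MKI67 at the low dose read 514, 381 and 510, with replicate 2 apart from the other two. The count of 12 was 6 without high-dose replicate 1 and 6 without low-dose replicate 2.

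**Figure D4:**
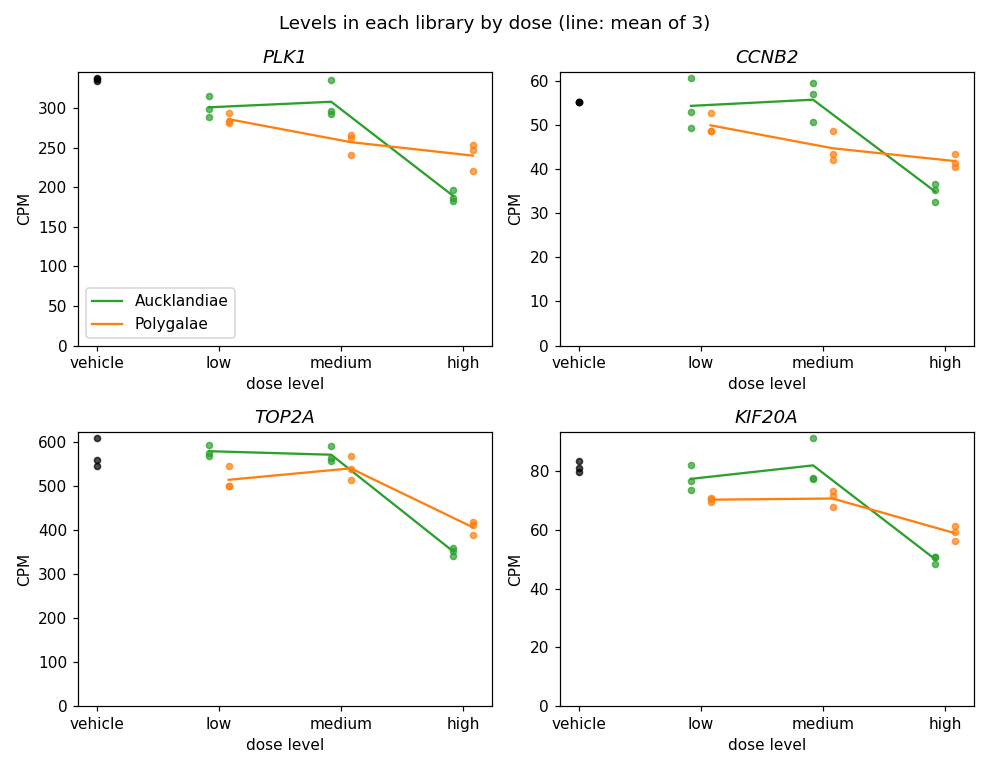
CPM (y axis) of PLK1, CCNB2, TOP2A and KIF20A in each library of the vehicle and of Aucklandiae and Polygalae at the low, medium and high dose (x axis), with lines through the means of 3. For Aucklandiae the 3 high-dose libraries of PLK1 lie at 183 to 196 CPM, apart from the 289 to 335 of the lower doses, while PLK1 with Polygalae goes from a mean of 286 to 257 and 240.

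For the other extracts, high- against low-dose Schisandrae lowered 13 genes (4.8% of all tested genes; median -0.14), among them NUSAP1 (-0.35 ± 0.09), KIF20A (-0.35 ± 0.05) and HMMR, a spindle protein (-0.31 ± 0.07). Its count was 6 without low-dose replicate 2, 7 without high-dose replicate 3, 8 without high-dose replicate 1 and 7 without the 4 libraries named above. High- against low-dose Zizyphi lowered 2 genes (0.139%), TOP2A (-0.22 ± 0.05) and CCNB1 (-0.20 ± 0.05), with 0 or 1 called when any of its 6 libraries was left out and 0 when only those 6 were fitted. By edgeR 0 genes fell for Longan (0.0% of all tested genes; 7 at an unadjusted p under 0.05, 0 by DESeq2) and 0 for Liriopis (0.0%; 4 at an unadjusted p under 0.05, 0 by DESeq2).

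The difference between extracts in this fall from low to high dose was tested directly, also as a test added after results were known. The fall was larger in Aucklandiae than in Liriopis for 36 of the 40 genes (2.97% of all tested genes; median difference -0.47 on the log2 scale), than in Longan for 33 (2.73%; -0.43) and than in Zizyphi for 30 (2.31%; -0.37). It was larger than in Schisandrae for 28 (2.25%; -0.37) and than in Polygalae for 28 (2.63%; -0.38), where the doses differ. All 5 tests use the same Aucklandiae libraries. With only the 12 libraries compared the Zizyphi count was 18, and with the replicate block in those libraries the counts were 13 for Zizyphi, 18 for Schisandrae and 20 for Longan. For TOP2A the difference ran from -0.72 ± 0.07 against Liriopis to -0.38 ± 0.07 against Polygalae, and for NEK2 from -0.67 ± 0.10 against Longan to -0.54 ± 0.10 against Liriopis. Each of the 5 tests called 21 of the genes, PLK1, CCNB1, TOP2A and NEK2 among them, and none called AURKB or CENPA.

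Further comparisons within a code set were added after results were known. Medium-dose Polygalae (90 µg/mL) was lower than medium-dose Aucklandiae (100 µg/mL) in 11 genes (2.53% of all tested genes), among them CCNB2 (-0.32 ± 0.07), CDC20 (-0.29 ± 0.06) and PLK1 (-0.26 ± 0.06). The count was 0 when only these 6 libraries were fitted, 6 without Aucklandiae replicate 1 or Polygalae replicate 3, and 7 without Polygalae replicate 2. At the low doses (18 and 20 µg/mL) 0 genes were lower by edgeR (0.406%), with 15 at an unadjusted p under 0.05 and 2 by DESeq2. High-dose Schisandrae was lower than high-dose Liriopis, both at 500 µg/mL, in 11 genes (5.06%), led by KIF20A at 61.7, 60.1 and 64.0 against 81.6, 79.0 and 84.9 CPM (-0.40 ± 0.05, edgeR adjusted p = 4e-08). That count was 6 without Liriopis replicate 1 and 7 without Schisandrae replicate 1. High-dose Zizyphi and high-dose Longan differed in 0 genes by edgeR (0.0182% of all tested genes were lower), with 2 at an unadjusted p under 0.05 and 0 by DESeq2.

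Fold changes of the 40 genes were set beside each other only for comparisons that share no library. Across the 40 genes, wortmannin against the vehicle and high- against low-dose Aucklandiae had a Pearson r of 0.41 and a Spearman rho of 0.44. High- against low-dose Polygalae gave 0.47 and 0.41 with wortmannin, and 0.53 and 0.54 with the Aucklandiae comparison. Schisandrae gave 0.14 and 0.22 with wortmannin and 0.45 and 0.42 with Aucklandiae. Zizyphi gave -0.12 and 0.08 with wortmannin and 0.22 and 0.26 with Aucklandiae. Over all 16517 tested genes r lay between -0.09 (wortmannin with Zizyphi) and 0.18 (Aucklandiae with Schisandrae) in these 7 pairs, and was 0.04 for wortmannin with Aucklandiae. These describe genes of the same few libraries, and genes are not independent replicates. PLK1 and PTTG1 were low on both axes of the plot of wortmannin against the Aucklandiae doses. TOP2A had -0.66 with wortmannin and -0.72 between the Aucklandiae doses and NEK2 -0.61 and -0.75, whereas CCNB1 had -0.98 and -0.48 and CDC20 -1.07 and -0.51.

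**Figure D5:**
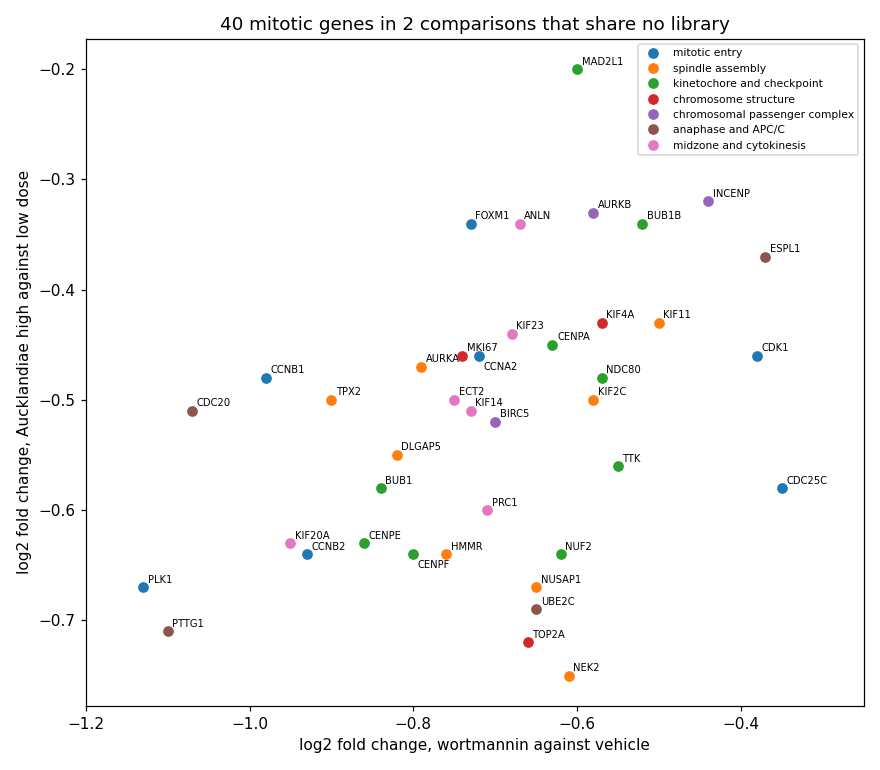
Log2 fold change of the 40 mitotic genes with wortmannin against the vehicle (x axis) and between high- and low-dose Aucklandiae (y axis), coloured by step. All points lie below 0 on both axes, with r = 0.41 over 40 genes.

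Genes near the 40 in function were counted the same way, where 16.2% of all tested genes fell and 16.4% rose with wortmannin and 12.5% fell and 13.6% rose with high-dose Aucklandiae. Of 45 other genes known to peak in G2 and M phase, 44 fell with wortmannin (median -0.56) and 42 with high-dose Aucklandiae (median -0.43), where the medians of the 40 were -0.69 and -0.53. The lowest with wortmannin were FAM83D, a spindle protein (-0.74 ± 0.05), and CEP55, an abscission protein (-0.74 ± 0.07), and the least of those called were KIF22 (-0.34 ± 0.04) and CDCA5 (-0.18 ± 0.05). With high-dose Aucklandiae they were PSRC1 (-0.69 ± 0.07) and KIF18A (-0.64 ± 0.10), and CDC25B (-0.24 ± 0.05) and MELK (-0.21 ± 0.07). High-dose Polygalae lowered 25 of the 45 (median -0.18).

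Mitotic machinery that is made throughout the cycle, such as APC/C core subunits and cohesin, moved less. Of its 22 genes 8 fell and 1 rose with wortmannin (median -0.19), and 6 fell and 3 rose with high-dose Aucklandiae (median -0.11), nearer to the shares of all tested genes than the periodic genes were. The lowest of those called with wortmannin were the APC/C subunits ANAPC1 (-0.35 ± 0.05) and CDC27 (-0.33 ± 0.05), and the highest of those called were CDC23 (-0.19 ± 0.05) and ANAPC16 (0.17 ± 0.05). With high-dose Aucklandiae the cohesin subunit SMC3 (-0.39 ± 0.08) and the APC/C activator FZR1 (-0.29 ± 0.07) were lowest of those called, and ANAPC4 (0.24 ± 0.08) and ANAPC11 (0.42 ± 0.12) highest. Among 30 genes of DNA replication and the G1/S step, 20 fell and 1 rose with wortmannin (median -0.18), and 19 fell and 1 rose with high-dose Aucklandiae (median -0.20). CCNE2, cyclin E2 (-0.49 ± 0.20), and POLA1, a DNA polymerase subunit (-0.44 ± 0.06), were lowest with wortmannin, and MCM10 (-0.14 ± 0.05) and the transcription factor E2F1 (0.36 ± 0.06) highest of those called. With high-dose Aucklandiae POLA1 (-0.45 ± 0.06) and the helicase subunit MCM7 (-0.36 ± 0.05) were lowest, and RRM2 (-0.18 ± 0.03) and E2F1 (0.21 ± 0.06) highest.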

How the data were processed

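RNA-seq of 60 HepG2 libraries was analysed. The authors deposited expected counts per gene from RSEM, one table of 60675 genes, not normalized. Per the submitters' processing notes the tools were STAR 2.7.3a, RSEM 1.3.3, FastQC 0.11.9 and Trim Galore 0.6.5, and the builds hg38 and GRCh38. For the counting, annotation and strand setting: not given in the sources used here. Of the deposited values above 0, 27.9% were not whole, and expected counts were rounded before testing. Symbols (57055 genes) and coordinates are from GENCODE 29 on GRCh38.

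Libraries held 20.21 to 36.41 M counts (median 25.76). Genes with low counts were filtered by group (filterByExpr), which left 16517 and removed 0.0532% of counts. Library sizes were scaled by TMM (factors 0.92 to 1.08). One edgeR 4.0.16 quasi-likelihood model with a mean per group was fitted to all 60 libraries in R 4.3.3 (limma 3.58.1), with 2-sided tests and Benjamini-Hochberg adjustment over all tested genes, threshold 0.05. The dose trend over 3 equally spaced log doses equals the contrast of high with low dose. The members and lists were chosen with earlier results of these data known. Genes named with full values are PLK1, CCNB1, CDK1, FOXM1, AURKB, BIRC5, MKI67, TOP2A, KIF20A and CDC20, then the lowest and highest fold change of each mitotic step with wortmannin and with high-dose Aucklandiae, those called higher, and the 2 lowest and 2 highest called genes of each other list; other genes were named after their values were seen.

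Alternatives were scaling by DESeq2's size factors method in edgeR (RLE), no filter, a stricter filter (1 CPM in 30 libraries), DESeq2 1.42.0, only the libraries compared, a replicate block, and leaving out each library and the 4 libraries named in the report. In 3 comparisons same-numbered libraries deviated together, with every correlation over 0.1: low-dose Liriopis against the vehicle (0.55, 0.33 and 0.24), and high against low dose of Schisandrae (0.39, 0.17 and 0.33) and of Zizyphi (0.36, 0.58 and 0.17). With the block over all libraries their counts were 0, 13 and 2, and with their 6 libraries alone 0, 19 and 0. On simulated counts for high-dose Aucklandiae against the vehicle (16312 genes) the test recovered 44% of 1.25-fold, 60% of 1.5-fold, 81.6% of 2-fold and 100% of 4-fold changes, with 13 false calls.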

Additional observations from a re-analysis of the deposited data

Results flagged for a closer look

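The difference between low and high dose was not alike across extracts: a test of the difference of the differences in edgeR found a larger fall in Aucklandiae than in each of the other 5. The number of the 40 genes with a larger fall was 36 against Liriopis, 28 against Schisandrae, 33 against Longan, 30 against Zizyphi and 28 against Polygalae. DESeq2 gave 36, 28, 33, 32 and 28 in the same order. With the replicate block in only the 12 libraries compared the counts were 25, 18, 20, 13 and 23, and without the block in those libraries 27, 21, 30, 18 and 26.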

How the results depend on the processing

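Of 474 calls of single genes over all comparisons, 0 reversed direction under any alternative run; over the alternatives, 6689 outcomes kept their side of the threshold and 877 lost the call. Without the filter the count of genes lower was 1 each for high-dose Liriopis, medium- and low-dose Schisandrae, medium-dose Longan and medium-dose Zizyphi, 3 for high-dose Longan, 7 for high-dose Zizyphi and 8 for medium-dose Polygalae. It was 1 for high- against low-dose Zizyphi, 0 for high-dose Zizyphi against Schisandrae, 3 for high-dose Schisandrae against Longan, 1 for high-dose Longan against Liriopis and 1 for low-dose Polygalae against Aucklandiae. Under the stricter filter the Schisandrae against Longan count was 4. Without the 4 libraries counts were 11 for high-dose Schisandrae, 1 for high-dose Longan, 3 for high-dose Zizyphi, 0 for low-dose Zizyphi, 7 and 5 for medium- and low-dose Polygalae, 0 for low-dose Aucklandiae, 7 for the Schisandrae doses, 3 for Schisandrae against Longan and 1 for low-dose Polygalae against Aucklandiae. With only the libraries compared, counts were 1 for medium-dose Schisandrae, 0 for high-dose Longan, 3 for high-dose and 0 for low-dose Zizyphi, 1 and 7 for medium- and low-dose Polygalae, 0 for low-dose Aucklandiae, 0 for the Zizyphi doses, 14 for high-dose Polygalae against Zizyphi, 18 for the difference of the Aucklandiae and Zizyphi doses and 0 for medium-dose Polygalae against Aucklandiae. DESeq2 gave 2 for low-dose Zizyphi, 3 for low-dose Aucklandiae, 2 for Schisandrae against Longan, 1 for Longan against Liriopis and 2 for low-dose Polygalae against Aucklandiae. The cause was not tested.

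With the replicate block over all libraries the Schisandrae against Longan count was 2. With the replicate block in only the libraries compared, counts were 2 for medium-dose Schisandrae, 0 for high-dose Longan, 3 for high-dose and 0 for low-dose Zizyphi, 1 for medium-dose Polygalae, 0 for low-dose Aucklandiae, 0 for the Zizyphi and 2 for the Polygalae doses, 13 for Polygalae against Zizyphi, 5 for Schisandrae against Longan, and 18, 20 and 13 for the difference of the Aucklandiae doses from those of Schisandrae, Longan and Zizyphi. Outside the 3 comparisons whose numbers deviated together, not every correlation between same-numbered libraries was over 0.1 where 1 group was compared with another. Single correlations could still be high. They were 0.68, 0.54 and 0.06 for medium-dose Polygalae against medium-dose Aucklandiae, and 0.6, 0.01 and 0.31 for high-dose Schisandrae against high-dose Longan. The labels do not say what libraries of the same number share.

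Leaving out 1 library at a time, counts against the vehicle were 40 to 40 for wortmannin, 38 to 39 for high-dose Aucklandiae, 25 to 31, 5 to 12 and 5 to 14 for high-, medium- and low-dose Polygalae, 8 to 13 for high-dose Schisandrae, 2 to 14 for high-dose Zizyphi, 1 to 3 for high-dose Longan, and 0 to 1 for low-dose Zizyphi and for medium- and low-dose Aucklandiae. Between doses they were 37 to 40 for Aucklandiae, 6 to 14 for Schisandrae, 6 to 12 for Polygalae and 0 to 1 for Zizyphi. Between neighbours they were 15 to 20, 24 to 26, 6 to 9, 0 to 1 and 0 to 2, in the order of the text. For the difference of doses they were 32 to 37, 19 to 27, 28 to 33, 22 to 29 and 22 to 28 (Liriopis, Schisandrae, Longan, Zizyphi, Polygalae). Within a set they were 0 to 1 and 6 to 16 for low- and medium-dose Polygalae against Aucklandiae and 6 to 9 for high-dose Schisandrae against Liriopis. At 3 libraries a group, small differences are resolved least, as the simulated data show.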

Other observations

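More regulators upstream of the mitotic genes fell than rose, and the share that rose was not above that of all tested genes. With wortmannin 16.2% of all tested genes fell and 16.4% rose, and with high-dose Aucklandiae 12.5% and 13.6%. Of 23 genes of cell cycle transcription control, 12 fell and 2 rose with wortmannin (median log2 fold change -0.18), and 10 fell and 2 rose with high-dose Aucklandiae (median -0.16). The MuvB subunit LIN9 (-0.46 ± 0.11) and the repressor E2F4 (-0.42 ± 0.07) were lowest with wortmannin, and the activators E2F1 (0.36 ± 0.06) and E2F2 (0.38 ± 0.10) highest. With high-dose Aucklandiae the repressor E2F8 (-0.55 ± 0.09) and LIN9 (-0.42 ± 0.11) were lowest, and E2F6 (0.20 ± 0.06) and E2F1 (0.21 ± 0.06) highest.

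Of 17 tested CDK inhibitors, G1 cyclins and related genes (18 listed), 4 fell with wortmannin, and 8 fell and 3 rose with high-dose Aucklandiae. The count of 4 of 17 is near the share of all tested genes that fell. The count of 3 of 17 that rose with high-dose Aucklandiae is near the 13.6% of all tested genes that rose. With wortmannin those called were CDKN3, a phosphatase of CDKs (-0.85 ± 0.19), BTG2 (-0.33 ± 0.12), CDKN1B, the inhibitor p27 (-0.18 ± 0.05), and CDK2 (-0.14 ± 0.04). With high-dose Aucklandiae CDKN3 (-0.65 ± 0.18) and WEE1, the kinase that restrains CDK1 (-0.40 ± 0.06), were lowest. CDKN2A (0.55 ± 0.18), CDKN2B (0.74 ± 0.12) and CDKN1A, the inhibitor p21 (0.24 ± 0.08), were the 3 that rose.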
